A study of Mus musculus with 8 samples.

Results

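The genes described here are 7 named genes for pancreatic enzymes outside the serine protease and lipase families: the amylase genes Amy1, Amy2a1, Amy2a5 and Amy2b, the carboxypeptidase genes Cpa1 and Cpb1, and the ribonuclease gene Rnase1. They were chosen by name, and 6 of the 7 were among the 11789 genes of the deposited table. Amy2b was not listed there and was not analysed here. The libraries came from whole pancreas of mice aged 6 weeks. There were 4 libraries of the genotype Daxxfl/flPdx1-CreTg, called DC, which had both Daxx alleles floxed and carried Pdx1-Cre, and 4 libraries of wild-type mice, called WT. The Pdx1 promoter is active in embryonic precursors of the acinar, duct and islet lineages, so stromal, vascular and immune cells of a DC pancreas are not its targets. With neither a Cre-only nor a floxed-only group, what deletion of Daxx does cannot be told apart from what Cre or the floxed alleles do. The series' design text gives both sexes in each genotype, and no label gives the sex of a library.

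Pancreatic acinar cells make digestive enzymes and store them in zymogen granules until a meal. Alpha-amylase cuts starch inside the chain. Carboxypeptidases are secreted as inactive precursors that trypsin activates, and they remove single amino acids from the end of peptides that trypsin, chymotrypsin and elastase leave. Cpa1 takes off aromatic and branched residues and Cpb1 takes off lysine and arginine. Rnase1 degrades RNA of food. In mice the amylases form a gene cluster in which Amy2a genes are the pancreatic copies and Amy1 is the copy known from salivary gland and liver.

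The libraries held 7705789 to 10517508 reads over the listed genes, which were recovered from the deposited normalized counts. Daxx, the targeted gene, had 26.8, 23.3, 29.2 and 32.5 normalized counts in DC replicates 1 to 4, against 39.7, 58.7, 46.7 and 45.2 in WT replicates 1 to 4. The groups did not overlap, the log2 difference was -0.74 ± 0.20 (SE), and the exact two-sided permutation p was 0.0286, the smallest that 70 relabellings allow. The limma adjusted p over all genes was 0.9997. All 6 acinar markers checked were listed, and none of the 9 salivary gland markers was listed.

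The sequences of the amylase copies are given first, because copies with the same letters cannot be told apart by a read. In GENCODE M21 (GRCm38) the cluster lies on the minus strand of chromosome 3. From low to high coordinates it holds Amy2b (annotated there as an unprocessed pseudogene), Amy2a5 (chr3:113247178-113258837), Amy2a4, Amy2a3, Amy2a2, Amy2a1 (chr3:113529403-113532428) and Amy1 (chr3:113555710-113606699). The coding sequences of Amy2a5, Amy2a4, Amy2a3 and Amy2a2 were identical over 1524 bases. The model of Amy2a1 is partial, and its 735 coding bases were identical to the start of the others. Amy1 differed from Amy2a5 in 163 of 1533 aligned coding positions, an identity of 89.4%. The stretch below, 60 bases of coding exon from each gene, is the part of a 231-base exon found in all copies with the most differences between Amy1 and Amy2a5, and capitals mark the 3 positions that differ. This exon, chosen as the longest exon length that all copies share, held 6 differences in all, fewer per base than the full coding sequence. Amy2a4, Amy2a3 and Amy2a2 have the same letters as Amy2a5 in the stretch.
Amy2a5, chr3:113255981-113256040, minus strand: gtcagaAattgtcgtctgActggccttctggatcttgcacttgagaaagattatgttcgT
Amy2a1, chr3:113529574-113529633, minus strand: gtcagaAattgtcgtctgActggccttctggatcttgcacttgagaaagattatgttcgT
Amy1, chr3:113563616-113563675, minus strand: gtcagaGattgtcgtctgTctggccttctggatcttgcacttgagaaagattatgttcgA

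Of the 100-base stretches of the Amy2a5 transcript, 52.6% occurred in no transcript of another gene. The first of them starts at base 1647 of the transcript and the coding part, without the stop codon, ends at base 1679. Every one of these stretches therefore reaches into the annotated 3′ untranslated region. From the stop codon on, the GENCODE transcript has 2036 bases, of which 36 lie inside the RefSeq model of the gene and 2000 lie beyond its end. For Amy2a1 the share was 5.44%, and over its 890 transcript bases it differed from Amy2a5 at 1 base, position 43, in the 5′ untranslated region. For Amy2a2, Amy2a3 and Amy2a4 the share was 0%, and none of these 3 genes was listed in the table. Amy1, Cpa1, Cpb1 and Rnase1 each had 100%. With 50-base stretches the shares were 42.8% for Amy2a5, 5.11% for Amy2a1 and 97.3% for Amy1. No source used here names the read counter or how reads that match several genes were handled. Only annotated transcripts were compared.

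**Figure D1:**
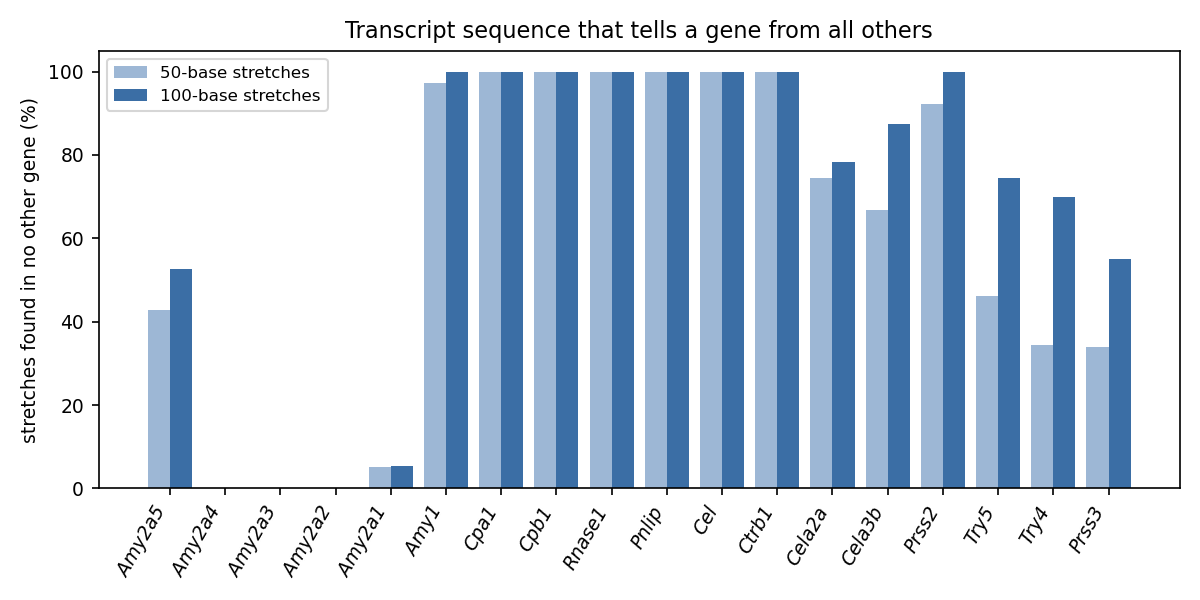
Percentage of 50-base (light) and 100-base (dark) stretches of the longest coding transcript of each gene that occur in no annotated transcript of another gene (GENCODE M21). Amy2a2, Amy2a3 and Amy2a4 stand at 0% and Amy2a1 at 5.44% for 100 bases, against 100% for Amy1, Cpa1, Cpb1 and Rnase1.

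The carboxypeptidases and Rnase1 were among the most abundant genes of the table, and the listed amylases were far below them. By mean count Cpa1 ranked 6, Cpb1 ranked 8 and Rnase1 ranked 16 of the 11789 genes, while Amy2a5 ranked 330, Amy1 ranked 660 and Amy2a1 ranked 2052. Per kilobase of annotated exon, Cpa1 had 233223 ± 39341 normalized counts in DC and 250638.2 ± 27837 in WT libraries (SD, n = 4 each, as for all values with ± below unless SE is stated). Cpb1 had 118497 ± 11138 per kilobase in DC and 138552 ± 12510.4 in WT. Rnase1 had 96963 ± 4925 per kilobase in DC and 106175 ± 12332 in WT. Among the amylases, Amy2a1 had 215.2 ± 56.3 per kilobase in DC and 217.4 ± 29.8 in WT. Amy2a5 had 201.7 ± 40.3 per kilobase in DC and 203.8 ± 39.9 in WT. Amy1 had 140.5 ± 20.9 per kilobase in DC and 136.9 ± 24.8 in WT. The order Cpa1, Cpb1, Rnase1 held in all 8 libraries, also per kilobase of the longest coding transcript. The order among the amylases depended on the gene model: per kilobase of all annotated exons both Amy2a genes were above Amy1 in all 8 libraries, while per kilobase of the longest coding transcript, a length chosen after seeing the data, Amy2a5 was above Amy1 in 2 libraries and Amy2a1 in 1. By that length Amy1 had 244.0 ± 36.2 in DC and 237.7 ± 43.0 in WT, Amy2a5 had 215.7 ± 43.1 in DC and 218.0 ± 42.6 in WT, and Amy2a1 had the values above. No order of the 3 amylase genes is therefore given.

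Per kilobase, Cpa1 was 1205 ± 363.1 times Amy2a5 in DC libraries and 1263 ± 257.1 times Amy2a5 in WT libraries. Alpha-amylase is known as a major secreted protein of the mouse pancreas. The levels of Amy2a5 and Amy2a1 given here are those of the listed genes, and reads from the coding sequence that the Amy2a copies share cannot be assigned to 1 copy by sequence. The part of this shared sequence in the low amylase levels was not tested.

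Levels of the 3 listed amylase genes overlapped between genotypes, with mean differences far smaller than the spread between animals. Amy2a5 (ENSMUSG00000074268.4) had 759.8, 999.6, 614.5 and 831.5 normalized counts in DC replicates 1 to 4, against 1015.1, 781.2, 630.04 and 812.7 in WT replicates 1 to 4. The highest value was in WT replicate 1 and the lowest in DC replicate 3, and the groups overlapped over most of their range. The means were 801.3 ± 160.1 in DC and 809.8 ± 158.4 in WT, with a log2 difference of -0.02 ± 0.16 (SE; 95% interval -0.35 to 0.32; exact two-sided permutation p = 0.83).

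Amy2a1 (ENSMUSG00000070360.5) had 257.04, 169.9, 139.6 and 199.5 normalized counts in DC replicates 1 to 4, against 210.6, 161.7, 182.1 and 219.6 in WT replicates 1 to 4. The highest and the lowest library were both DC, so DC enclosed the WT range. These values rest on 134 to 249 reads per DC library and 124 to 248 per WT library. The log2 difference was -0.04 ± 0.17 (SE; 95% interval -0.41 to 0.33; exact permutation p = 0.83). Amy1 (ENSMUSG00000074264.12) had 544.02, 528.1, 384.3 and 480.8 in DC replicates 1 to 4, against 573.7, 371.7, 444.04 and 497.6 in WT replicates 1 to 4. Here the WT libraries enclosed the DC range, with the highest in WT replicate 1 and the lowest in WT replicate 2. The log2 difference was 0.04 ± 0.15 (SE; 95% interval -0.27 to 0.35; exact permutation p = 0.83). The intervals of the 3 amylase genes leave room for a change of up to 1.28-fold upward and down to 0.752 of the WT level.

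Summed over the 3 listed amylase genes, the DC libraries had 1561, 1698, 1138 and 1512 normalized counts and the WT libraries 1799, 1315, 1256 and 1529.9. The sums averaged 1477 ± 239.2 in DC and 1475 ± 246.2 in WT. Amy2a5 made up 54.1% ± 4.21 of the sum in DC and 54.8% ± 4.02 in WT. Amy1 made up 32.9% ± 1.73 in DC and 32.01% ± 2.91 in WT. Amy2a1 made up 13.0% ± 2.68 in DC and 13.2% ± 1.42 in WT. The share of each listed copy overlapped between genotypes.

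Carboxypeptidase levels overlapped between genotypes, with Cpb1 showing the larger mean difference. Cpa1 (ENSMUSG00000054446.8, chr6:30639218-30645363, plus strand) had 370873, 334638, 438101 and 488951 normalized counts in DC replicates 1 to 4, against 418982, 510651, 403139 and 421696 in WT replicates 1 to 4. DC replicates 1 and 2 lay below every WT library, while DC replicates 3 and 4 lay inside the WT range. The means were 408141 ± 68846 in DC and 438617 ± 48715 in WT. The log2 difference was -0.11 ± 0.18 (SE; 95% interval -0.49 to 0.27; exact permutation p = 0.486), and with every library scaled to the same total it was 0.01. Cpa1 took 4.64% ± 0.262 of reads in DC and 4.62% ± 0.331 in WT.

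Cpb1 (ENSMUSG00000011463.5, chr3:20248264-20275733, minus strand) had 380279.8, 393093, 347402 and 435805 normalized counts in DC replicates 1 to 4, against 504036, 413131, 430442 and 472408 in WT replicates 1 to 4. Of the DC libraries, 3 lay below the lowest WT library, and DC replicate 4 lay among the WT values. The means were 389145 ± 36578 in DC and 455004 ± 41084 in WT, so the DC mean was 85.5% of the WT mean. The log2 difference was -0.23 ± 0.16 (SE; 95% interval -0.57 to 0.12), or -0.10 with equal library totals, with an exact permutation p of 0.0857 and a limma adjusted p of 0.9997 over all genes. Its lowest adjusted p over 18 alternatives was 0.965. It took 4.48% ± 0.520 of reads in DC and 4.81% ± 0.585 in WT.

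Within a library, the ratio of Cpb1 to Cpa1 counts does not depend on how libraries are scaled. It was 1.03, 1.17, 0.793 and 0.891 in DC replicates 1 to 4, against 1.203, 0.809, 1.07 and 1.12 in WT replicates 1 to 4. Each genotype held libraries with more Cpb1 than Cpa1 counts and libraries with fewer. The ratio averaged 0.971 ± 0.166 in DC and 1.05 ± 0.170 in WT. The difference between these means was smaller than the SD of either genotype.

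The summed amylase counts per 1000 counts of Cpa1 and Cpb1 also compare members within a library. They were 2.08, 2.33, 1.45 and 1.63 in DC replicates 1 to 4, against 1.95, 1.42, 1.51 and 1.71 in WT replicates 1 to 4. DC replicates 1 and 2 lay above every WT library, and DC replicates 3 and 4 lay among them. The values averaged 1.87 ± 0.404 in DC and 1.65 ± 0.235 in WT. DC replicates 1 and 2 were also the libraries with the lowest Cpa1.

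Rnase1 (ENSMUSG00000035896.5, chr14:51144998-51146785, minus strand) had 94069, 93919, 93265 and 103497 normalized counts in DC replicates 1 to 4, against 108867, 100405, 91677 and 120355 in WT replicates 1 to 4. DC replicates 1 to 3 lay close together, between the lowest and the second-lowest WT library, while the WT libraries were more spread. The means were 96187 ± 4885 in DC and 105326 ± 12233 in WT. The log2 difference was -0.13 ± 0.13 (SE; 95% interval -0.41 to 0.16; exact permutation p = 0.257), and with equal library totals it was -0.0024. The count ratio of Rnase1 to Cpa1 within a library was 0.240 ± 0.0335 in DC and 0.242 ± 0.0386 in WT.

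**Figure D2:**
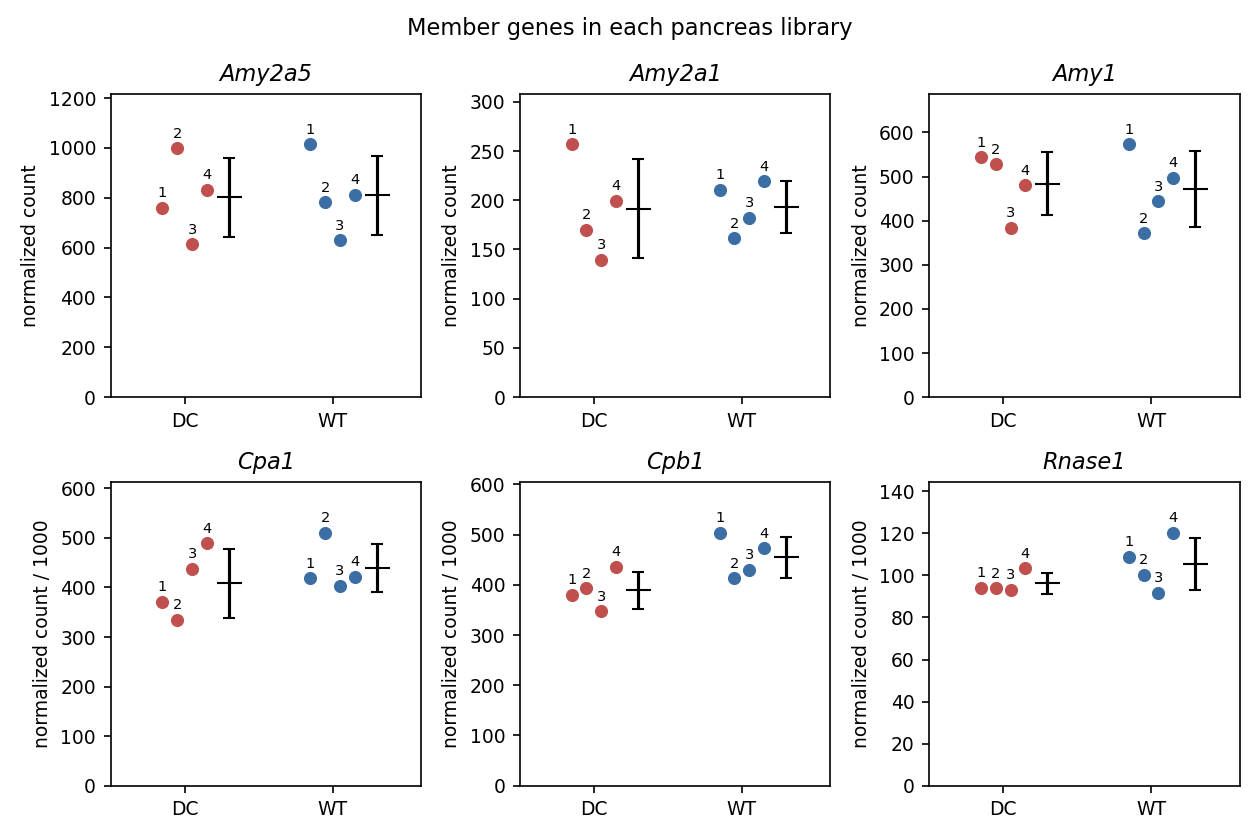
Normalized counts of the 6 listed members in each library (points, numbered by replicate), DC left and WT right, with the mean and SD of each group (n = 4) beside them; the lower panels show counts divided by 1000. The groups overlap in every panel, and in Cpb1 3 of 4 DC libraries lie below the lowest WT library.

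No member was called. Across the 10468 tested genes limma called 0 genes, or 0%, at an adjusted p under 0.05. An unadjusted limma p under 0.05 was reached by 302 genes, or 2.88%, and by 0 of the 6 members. The quasi-likelihood test of edgeR on recovered reads called 0 genes and had 299 with an unadjusted p below 0.05. DESeq2 called 1 gene, Bglap3, named here only for this count, and had 219. The groups did not overlap in 1.87% of tested genes, with DC higher in 0.831% and DC lower in 1.04%, and in 0 of the 6 members. With the deposited scaling, 5 of the 6 members had a log2 difference below 0, with a median of -0.08, against 51.9% of all tested genes and a median of -0.01. When every library was scaled to 1 total, the all-gene median became 0.11, the median of the members became 0.05, and 2 of the 6 members lay below 0. Under both scalings 5 of the 6 lay below the all-gene median.

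Other secreted enzymes of the acinar cell were measured beside the members. Of 20 serine protease, lipase and other hydrolase genes tested, 0 were called, 18 had a log2 difference below 0 and the median was -0.15. The 2 above 0 were the trypsinogen genes Prss1 at 0.99 and Prss3 at 0.69. An unadjusted limma p under 0.05 was reached by 3 of the 20 (Prss1, Try10 and Ctrc), against 2.88% of all tested genes. DC and WT overlapped in each of these 3, with an exact permutation p of 0.114 for Prss1, 0.114 for Try10 and 0.0857 for Ctrc. With equal library totals 11 of the 20 lay below 0, and under both scalings 18 lay below the all-gene median. Of 14 serine protease genes 12 lay below 0, with a median of -0.17. The most abundant of them, the chymotrypsinogen gene Ctrb1, had 944545 ± 210475 normalized counts in DC and 979153 ± 198583 in WT. The elastase gene Cela1 had 528464 ± 118908 in DC and 584985 ± 73890.4 in WT, Cela2a had 441800.3 ± 89519 in DC and 462811 ± 48905 in WT, and the trypsinogen gene Prss2 had 395619 ± 101826 in DC and 450084 ± 23805 in WT. Of 7 lipase and other hydrolase genes 6 were tested and 6 lay below 0, with a median of -0.12. The triglyceride lipase gene Pnlip had 781169 ± 97766 in DC and 864681 ± 44680 in WT, and Cel, which splits cholesterol esters, had 625119 ± 120747 in DC and 667094 ± 26829 in WT. Pnliprp1 had 246224 ± 24072 in DC and 276275 ± 9987 in WT, and the colipase gene Clps had 88960.2 ± 12278 in DC and 96606 ± 11021 in WT. DC and WT overlapped in each of the 8 genes given with normalized counts. The differences of Cpa1, Cpb1 and Rnase1 lay between -0.23 and -0.11, and those of the 3 amylase genes between -0.04 and 0.04; the contrast between these ranges was not tested.

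**Figure D3:**
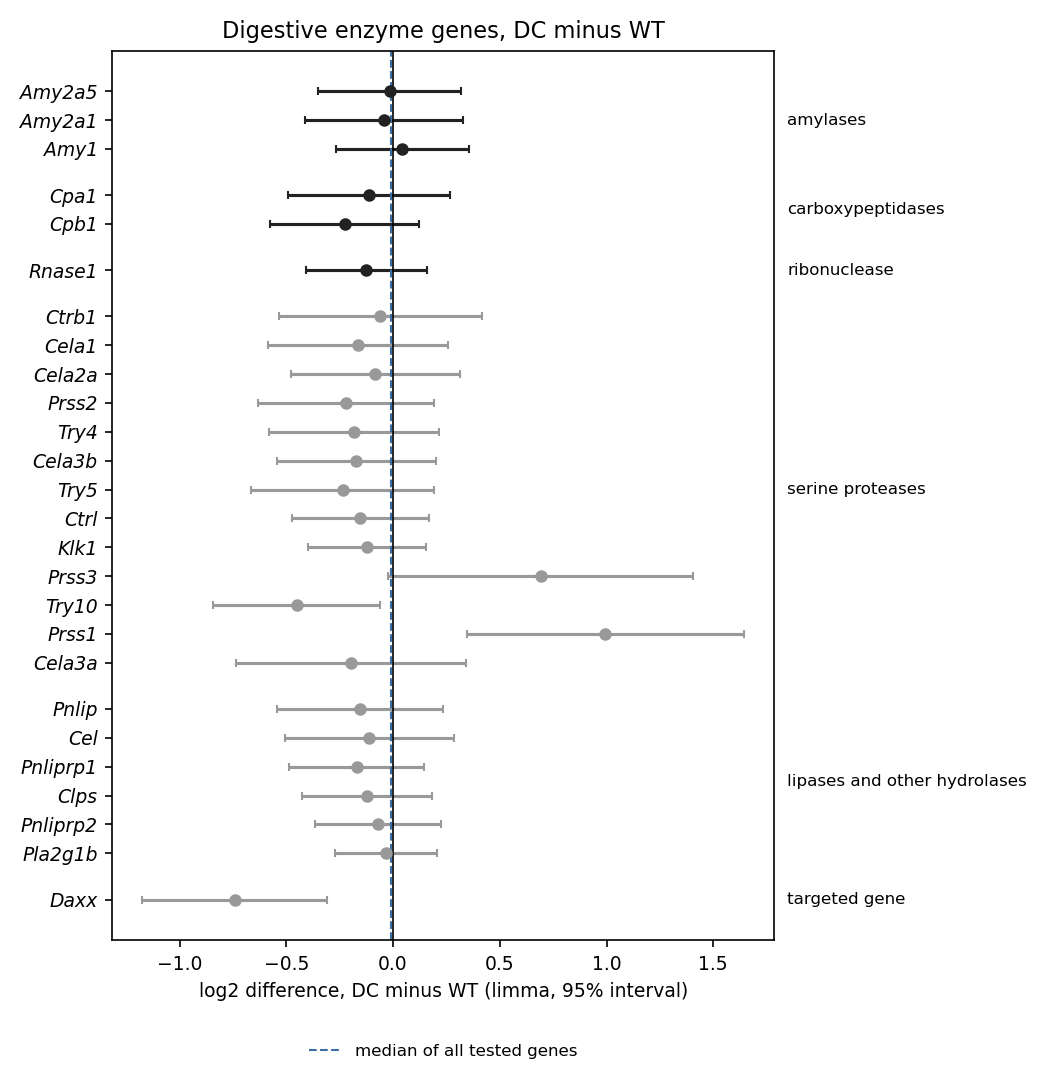
Log2 difference, DC minus WT, with its 95% interval (limma, n = 4 each) for the listed members (black), other digestive enzyme genes and Daxx (grey); the dashed line is the median of all tested genes. Intervals of all 6 members cross 0. Those of Daxx, Prss1 (0.34 to 1.64) and Try10 (-0.84 to -0.06) do not. Ctrc, at -2.30 with an interval of -4.26 to -0.34, was not plotted. Its groups overlapped, with 2723 to 57356 normalized counts in DC and 4065 to 76266 in WT libraries.

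None of the other carboxypeptidase genes examined was called. Of 15 in the list, 9 were listed and 7 tested, 4 above and 3 below 0, with a median log2 difference of 0.01 (1 below 0 with equal library totals). Cpn1, the catalytic subunit of the plasma carboxypeptidase N, had 408.5 ± 47.7 normalized counts in DC and 401.0 ± 18.3 in WT. Cpd, a carboxypeptidase of the Golgi, had 363.8 ± 13.9 in DC and 419.3 ± 47.9 in WT. Cpe, which trims prohormones in endocrine cells, had 288.2 ± 55.4 in DC and 301.6 ± 97.6 in WT. Cpm had 39.7 ± 11.4 in DC and 38.2 ± 4.22 in WT, and Cpq had 48.3 ± 6.08 in DC and 51.7 ± 19.7 in WT. Agbl5, which trims glutamates from tubulin, had 32.0 ± 6.94 in DC and 30.9 ± 5.64 in WT, and Cpxm1 had 15.8 ± 3.39 in DC and 13.0 ± 1.27 in WT. Cpa3, known from mast cells, had 4.37 ± 3.92 in DC and 4.09 ± 2.96 in WT, and Cpxm2 had 4.95 ± 4.48 in DC and 3.64 ± 1.18 in WT; both were under the minimum mean of 10 and were not tested.

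Among genes for other ribonucleases and their inhibitor, 5 of 13 were listed and tested, 3 above and 2 below 0 (1 below 0 with equal library totals), with a median log2 difference of 0.05 and 0 called. Rnh1, the cytosolic inhibitor that binds Rnase1, had 1245 ± 97.4 normalized counts in DC and 1319 ± 186.5 in WT. Rnase4 had 444.4 ± 67.9 in DC and 397.2 ± 55.9 in WT, and Ang, the angiogenin gene, had 154.3 ± 21.2 in DC and 142.4 ± 25.0 in WT. Ang and Rnase4 share a promoter and leader exons, so their counts are uncertain where reads fall there. Of the microRNA processing enzymes, Dicer1 had 326.9 ± 40.3 in DC and 315.2 ± 29.0 in WT, and Drosha had 70.6 ± 12.1 in DC and 77.9 ± 2.67 in WT. Of 8 other amylase and starch genes 2 were listed. The lysosomal glucosidase Gaa had 186.0 ± 25.8 in DC and 189.3 ± 25.2 in WT, and the brush border enzyme Mgam had 13.4 ± 5.49 in DC and 11.0 ± 6.27 in WT.

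The transcription factors that drive acinar enzyme genes gave 0 calls among 9 tested, 5 above and 4 below 0 (1 below 0 with equal library totals), with a median log2 difference of 0.08. Rbpjl, the acinar partner of Ptf1a in the PTF1 complex, had 2779 ± 541.7 normalized counts in DC and 2824 ± 824.5 in WT. Xbp1, a regulator of secretory capacity, had 2153 ± 249.1 in DC and 2329 ± 244.9 in WT. Bhlha15, which matures the secretory apparatus, had 1985 ± 241.4 in DC and 1822 ± 248.7 in WT, and Nr5a2 had 410.4 ± 73.8 in DC and 387.5 ± 79.4 in WT. PTF1 is known to bind an E-box, CANNTG, joined to a second box, TTTCCC.

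These letters and TATAAA were searched on both strands in the 250 bases before each RefSeq start site (GRCm38.p6). The last 150 bases before the start are shown for the carboxypeptidase and ribonuclease genes, since these genes share expression in acinar cells, and capitals mark matches. The last 18 bases of the Rnase1 stretch lie inside its GENCODE gene model. No amylase stretch is shown. RefSeq places the start of Amy2a5 138 bases inside the GENCODE transcript and the starts of Amy1 further inside its GENCODE gene, while the start of Amy2a1 had no such offset.
Cpa1, chr6:30639068-30639217, plus strand: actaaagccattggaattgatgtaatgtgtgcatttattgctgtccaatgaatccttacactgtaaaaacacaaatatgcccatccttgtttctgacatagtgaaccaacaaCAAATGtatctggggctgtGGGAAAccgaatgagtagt
Cpb1, chr3:20275734-20275883, minus strand: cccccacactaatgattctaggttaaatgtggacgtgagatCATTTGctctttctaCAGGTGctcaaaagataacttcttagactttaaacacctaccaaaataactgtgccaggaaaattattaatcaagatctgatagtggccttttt
Rnase1, chr14:51146768-51146917, minus strand: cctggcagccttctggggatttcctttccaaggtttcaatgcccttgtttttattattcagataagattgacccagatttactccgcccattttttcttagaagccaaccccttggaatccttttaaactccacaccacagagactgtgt

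Cpa1 held CANNTG 38 bases and TTTCCC, on the opposite strand, 19 bases before the start. Of the 32851 mouse start sites searched, 66.2% held CANNTG, 21.9% held TTTCCC and 4.76% held both within 30 bases. Amy2a5 held TATAAA 30 bases before its RefSeq start, as 12.4% of start sites did somewhere in the window, and 1 CANNTG. Amy2a1 held 1 CANNTG, 118 bases before its start, and no TATAAA. The second RefSeq start of Amy1 held TATAAA 63 bases before it and the first held none. The windows of Amy2a5 and Amy2a1 lie at different places relative to their GENCODE transcripts, so their matches are not compared. Cpb1 held CANNTG at 2 places and neither of the other motifs. Rnase1 held none of the 3. A match is a run of letters and not a binding site, and the window leaves out enhancers.

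From animal to animal the members did not move as 1 block. Within genotypes the SD of log2 values was 0.13 for Cpb1 and 0.13 for Rnase1, 0.20 for Cpa1, 0.25 for Amy1, 0.29 for Amy2a5 and 0.30 for Amy2a1, against a median of 0.27 over all tested genes. Of all tested genes, which reach down to a mean of 10, 7.79% had a smaller spread than Rnase1 and 8.65% a smaller spread than Cpb1. In the 8 other enzyme genes given with mean counts above, this SD was 0.11 for Pnliprp1, 0.13 for Pnlip, 0.18 for Clps and 0.19 for Cel. It was 0.23 for Cela2a, 0.26 for Cela1, 0.27 for Prss2 and 0.30 for Ctrb1. DC replicate 3 had the lowest Amy2a5 and Amy2a1 values of all 8 libraries and the lowest Cpb1, while its Cpa1 stood above the mean of the 8 libraries. WT replicate 2 had the highest Cpa1 and the lowest Amy1 of all libraries. WT replicate 1 had the highest Amy2a5, Amy1 and Cpb1.

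Over the 8 libraries, 15 pairs of members were correlated on log2 values, and 0 passed after Benjamini-Hochberg adjustment of exact permutation p-values, with 2 at an unadjusted p under 0.05 (3 with values centred per genotype and 6 with equal library totals). The closest pair of amylases was Amy1 and Amy2a1, with Pearson r = 0.76 (exact p = 0.0287, adjusted p = 0.215) and Spearman rho = 0.74 (exact p = 0.0458, adjusted p = 0.287). Without DC replicate 3 and WT replicate 2, the libraries farthest from the median of Amy1, r was 0.41. Cpb1 and Rnase1 had r = 0.76 (exact p = 0.0287, adjusted p = 0.215) and rho = 0.71 (exact p = 0.0576, adjusted p = 0.287), and r = 0.79 without DC replicate 3 and WT replicate 1. Cpa1 and Cpb1 had r = 0.18 (exact p = 0.666, adjusted p = 0.666) and rho = 0.17 (exact p = 0.703, adjusted p = 0.752), and r was 0.14 without DC replicate 2 and WT replicate 2. Pearson r was above 0 in 12 of the 15 pairs with the deposited scaling and in 10 with equal library totals. With equal library totals Cpa1 had an r below 0 with every other member, and all remaining pairs were above 0. All members of a library share its size factor, which enters each of these values.

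**Figure D4:**
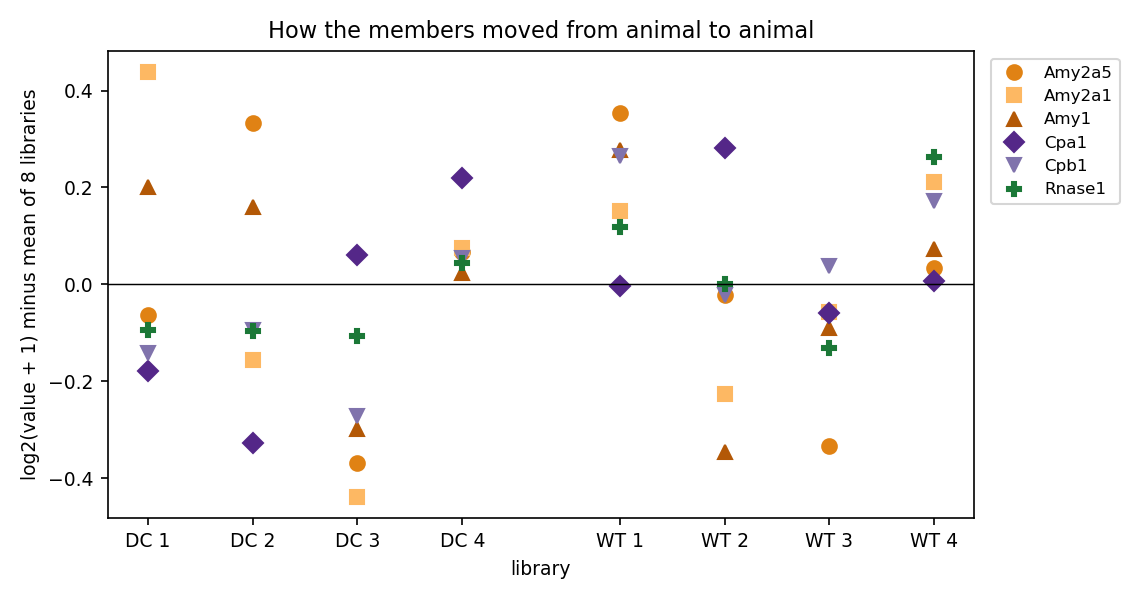
Log2(value + 1) of each listed member minus its mean over the 8 libraries, by library (DC left, WT right; libraries have no order within a genotype). Cpa1 stands above 0 in DC replicate 3 and WT replicate 2, where Amy1, Amy2a1 and Amy2a5 stand below 0, and in DC replicate 4 all 6 members stand above 0 with Cpa1 highest.

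The genes most like each member over the 8 libraries were taken as the 3 highest Pearson r of log2 values among 4097 other genes with a mean of at least 100. For Cpa1 they were Agap1 (r = 0.98), Aqp12 (r = 0.97), an aquaporin of acinar cells, and the zinc transporter gene Slc39a5 (r = 0.96). Aqp12 had 1479 ± 223.3 normalized counts in DC and 1549 ± 178.8 in WT. For Cpb1 they were Aass (r = 0.95), of lysine breakdown, the growth factor gene Bmp3 (r = 0.95) and Ugt2b34 (r = 0.95). For Rnase1 they were Paip2 (r = 0.96), the lysosomal enzyme gene Ctsa (r = 0.94) and Dnajb14 (r = 0.93). For Amy1 they were the nuclear import receptor gene Tnpo1 (r = 0.98), Vps54 (r = 0.98) and Gigyf2 (r = 0.98). For Amy2a5 they were Elovl5 (r = 0.95), Tbl1xr1 (r = 0.95) and Eif2s3x (r = 0.92), and for Amy2a1 Sgms1 (r = 0.99), Eif5b (r = 0.95) and Akap9 (r = 0.94). These are the highest of many values from 8 libraries and are given as a description. No digestive enzyme gene was among these 18, but the members themselves were left out of the search. The 20 other enzyme genes tested are few beside the 4097 genes searched, so this absence shows little.

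Whole pancreas mixes cell types, and in it fewer cells of a type and less RNA per cell cannot be told apart. Summed normalized counts of marker lists are given for other cell types, but each sum is weighted to the most abundant genes of its list. In the fat list Lpl averaged 289.2 over all libraries, while Adipoq ran from 0 to 77.5 and Plin1 from 1.05 to 40.0. In the liver list Ttr averaged 295.8 and Alb 22.3. The sums therefore do not measure how far the libraries differed in cell content. The 7 ductal markers summed to 1081 to 1310.0 in DC and 1110.2 to 1309 in WT, and the 6 stromal markers to 3332 to 5497 in DC and 3089 to 4855 in WT. The 7 islet markers summed to 1633 to 7397 in DC and 2059 to 7643 in WT, and 6 of them had a log2 difference below 0. The 5 endothelial markers summed to 429.8 to 578.0 in DC and 445.3 to 519.1 in WT, the 5 macrophage markers to 232.0 to 558.1 in DC and 299.2 to 455.6 in WT, and the 4 fat markers to 324.4 to 569.8 in DC and 270.7 to 455.2 in WT. Of 5 liver markers 3 were listed, with sums of 236.4 to 374.8 in DC and 302.8 to 408.1 in WT. Of 6 mast cell markers 2 were listed, and of 5 lymphocyte markers 1 was. Of 6 genes known to rise in injured acinar cells 5 were listed, and all 5 had a log2 difference below 0. Their median of -0.72 is the value of Reg2, with a 95% interval of -2.43 to 0.99. Values spread widely in both genotypes. Reg3a ran from 98.9 to 1100.4 in DC and 175.3 to 2527.0 in WT, and Reg3b from 252.0 to 2390.8 in DC and 697.8 to 4733.6 in WT. The 5 genes summed to 67776 to 146965 in DC and 77583 to 181567 in WT, and none was called. Of these 5 genes, the groups did not overlap for Spink1 alone, a trypsin inhibitor, at 5033 ± 649.4 in DC and 6539.6 ± 266.8 in WT. Among all tested genes the groups did not overlap in 1.87%, with DC lower in 1.04%. The part of these cell types in the member values was not tested.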

How the data were processed

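RNA of 8 whole pancreases was sequenced as strand-specific total RNA libraries, per the labels' protocols. The authors deposited 1 signal per gene and library, which the values show to be a read count divided by that library's size factor. STAR 2.6.0b, DESeq2 and the build GRCm38 are named in the submitters' processing notes, and no source used here names the read counter or its annotation. Every value was a whole multiple of 1 step per library, which gave whole reads for 100% of values within 0.001. No gene of the table had fewer than 4 libraries with 5 reads or more.

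Genes with a mean of at least 10 (10468 of 11789) were fitted as log2(normalized count + 1) with limma 3.58.1 (R 4.3.3), with the trend option and a term for genotype alone, and p-values were Benjamini-Hochberg adjusted over all tested genes. Differences are on that scale, which understates changes of low genes. The fit was also run on simulated counts, and no result given here rests on that run. Single genes had an exact two-sided permutation test of log2 means over 70 relabellings. edgeR 4.0.16 and DESeq2 1.42.0 were run on recovered reads as alternatives. Sums and ratios of members carry no test. Levels per kilobase use the union of annotated exons unless stated. Transcript stretches came from GENCODE M21, start sites from RefSeq (GRCm38.p6), where all 7 member names matched, and coding sequences were aligned with Biopython 1.88. No pair of libraries of 1 genotype agreed within counting noise (chi-square per degree of freedom at least 6.97). Replicates were numbered in accession order. The design text gives mice per genotype, so libraries were taken as separate animals. Precision is limited by 4 animals per genotype.

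The members, gene lists and tests were chosen with earlier results of these data known. Genes named are the members, Daxx, the listed carboxypeptidase, ribonuclease and starch genes (2 genes of these lists are not reported here and were left out of the counts), the 4 most abundant genes of each of 3 lists (proteases, lipases, transcription factors), the 3 genes most like each member and any called gene. Bglap3, Ctrc, Spink1, Prss1, Prss3, Try10 and single genes of the marker lists fall outside this rule and were named after their values were seen. Other enzymes appear only in the plot of differences or in the comparison of sequences. Summed marker lists describe other cell types and are weighted to their most abundant genes.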

Additional observations from a re-analysis of the deposited data

Results flagged for a closer look

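Rnase1 in DC replicate 4, at 103497 normalized counts, lay far from the other 3 DC libraries, which stood between 93265 and 94069. The gap to the nearest library was 0.921 of the range of the group, above the 95% critical value of Dixon's test for 4 samples. Of 28 groups checked, over the members, Daxx and the sums and ratios, 1 was flagged, where chance gives 1.4. DC replicate 4 lay inside the WT range of 91677 to 120355.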

How the results depend on the processing

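No member was called under any alternative: pseudocounts of 0.5 and 8, TMM, equal library totals, no filter, a minimum mean of 50, robust moderation, a Y-linked covariate, edgeR, DESeq2 and each library left out in turn. Cpb1 and Rnase1 had a difference below 0 in all 18 alternatives, but with equal library totals Cpb1 shrank to -0.10 and Rnase1 to -0.0024. With that scaling Amy2a1 turned to 0.082, Amy2a5 to 0.11 and Cpa1 to 0.0096, while the median of all genes moved to 0.11. Leaving out 1 library moved Amy1 between -0.065 and 0.15, Amy2a1 between -0.19 and 0.10 and Amy2a5 between -0.13 and 0.10, and it moved Cpa1 between -0.21 and -0.023, Rnase1 between -0.19 and -0.058, Cpb1 between -0.28 and -0.17 and the log2 ratio of Cpb1 to Cpa1 between -0.23 and -0.021. Over all genes 1 gene, Bglap3, was called with equal library totals, robust moderation, the Y-linked covariate and DESeq2, and leaving out 1 library gave 0 to 1 calls (1 without DC replicate 2). Cpa1 and Cpb1 had r = -0.048 with values centred per genotype and -0.69 with equal library totals, and Cpa1 and Rnase1 had -0.37 with equal library totals, while Amy1 and Rnase1 had 0.74 with equal library totals against 0.28 with the deposited scaling; no pair passed under either. Per kilobase of the longest coding transcript, added after seeing the data, the mean ratio to Amy1 was 0.904 for Amy2a5 and 0.899 for Amy2a1, against 1.47 and 1.56 per kilobase of all exons. Scaling to equal totals changes every gene of a library by 1 shared factor. The amylase ratios moved with the length used, which for Amy1 was 3446 bases of all exons or 1985 bases of transcript. Why the library scalings differ was not tested. Daxx could not be fitted at a minimum mean of 50. No paired analysis was possible because the numbers in the library titles are not shared between the genotypes. Depth limits Amy2a1 most, at 124 to 249 reads per library.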
